A study of Homo sapiens with 8 samples.

Results

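The genes described here are 10 proteoglycans of the extracellular matrix, the 6 small leucine-rich proteoglycans DCN, LUM, BGN, PRELP, FMOD and OGN and the 4 large chondroitin sulfate proteoglycans VCAN, ACAN, BCAN and NCAN. They were taken by symbol from a table of 47591 genes, and all 10 are in it. The set was chosen by the measured levels and fold changes in these libraries, among them the high DCN and LUM of the edited line. Their levels and fold changes are therefore given as a description, without p-values. The table holds RNA-seq of polyadenylated RNA from SH-SY5Y, a neuroblastoma cell line with neuronal features. The study compared 3 libraries of G2, a line edited by CRISPR/Cas9 with a guide against the splicing factor gene PRPF40B, 3 of SCR, a line made with a scramble guide, and 2 of WT, the unedited cells. The study's methods describe single colonies grown by limiting dilution after puromycin selection for the edited lines, and do not say it of SCR. G2 is thus a line of clonal origin, and an effect of the edit and a difference between clones cannot be told apart. SCR and G2 cells were kept in puromycin, which is not stated for WT, and in comparisons against WT the drug, the guide and the line cannot be told apart either.

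A proteoglycan is a protein that carries long sulfated sugar chains. Decorin and lumican are small secreted proteins whose leucine-rich repeats hold collagen fibrils, and decorin also binds TGF-beta. Decorin and biglycan carry chondroitin or dermatan sulfate, whereas lumican, fibromodulin, PRELP and osteoglycin (OGN) can carry keratan sulfate or no chain. Versican (VCAN), aggrecan (ACAN), brevican (BCAN) and neurocan (NCAN) form the lectican family, which bind hyaluronan at the N-terminal end and tenascins at the C-terminal end. Neurocan and brevican belong mainly to the nervous system, versican is widespread in developing and loose connective tissue, and aggrecan is the main lectican of cartilage and of perineuronal nets.

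The values are normalized counts, that is the counts of a gene divided by a size factor of its library. The counts recovered from them summed to between 59804395 and 81080747 per library. PRPF40B lay between 840 and 918 normalized counts in G2 and between 1668 and 1972 in the 5 control libraries. Ribosomal RNA genes held 4.75% to 4.96% of the normalized counts in WT and 0.384% to 0.587% in the other lines, and the part of this in the differences against WT was not tested. Markers of adrenergic neuroblastoma cells were present in all lines, with ISL1 between a mean of 2607 ± 31.8 (SD, n = 3) in G2 and 7994 ± 282 (SD, n = 2) in WT. TH, the tyrosine hydroxylase gene, was close to the limit of detection, at a mean of 1.88 in G2, 14.0 in SCR and 16.9 in WT.

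DCN, LUM and VCAN were several times more abundant in G2 than in SCR, and in SCR than in WT. NCAN had its highest level in SCR, BCAN differed little between the lines, and BGN was close to the limit of detection. PRELP, OGN and ACAN were listed at 0 in all 8 libraries, and FMOD in 7 of them. A gene was called when it differed by at least 1.5-fold with an unadjusted p of at most 0.05 in the limma fit of log2(normalized count + 1) to the 18947 genes whose mean reached 10. In G2/SCR, 4 members were called higher (DCN, LUM, VCAN and BGN), where 15.1% of all genes tested were, and 1 was called lower (NCAN), where 11.8% of all genes were. In G2/WT the same 4 were called higher (17.7% of all genes) and 0 lower (12.2% of all genes). In SCR/WT, DCN, LUM, VCAN and NCAN were called higher (10.7% of all genes) and 0 lower (5.63% of all genes). These counts follow from the choice of the genes. The 3 comparisons share libraries, so their values are not independent of each other.

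**Figure D1:**
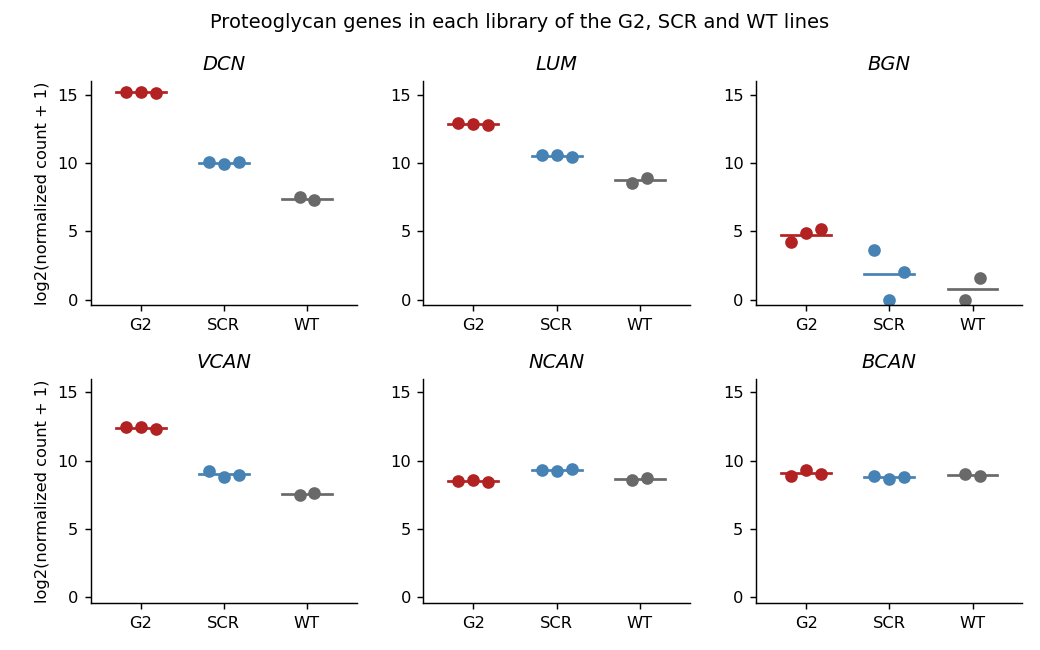
Each point is a library, on a log2(normalized count + 1) axis, for the 6 members with a mean of at least 10, and each bar is the mean of the log2 values of a line. DCN, LUM and VCAN fall from G2 to SCR to WT with no overlap, NCAN is highest in SCR, the lines overlap in BCAN, and BGN is lower in every SCR and WT library than in G2, with 1 library of each at 0.

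DCN (GSHG0010409, chr12:91140484-91182817, hg38) encodes decorin. It stood at 37707, 37595 and 36247 normalized counts in the G2 libraries, at 1104, 951 and 1098 in SCR, and at 179 and 154 in WT. The 3 lines were far apart and the libraries within a line close together, with means of 37183 ± 812 (SD, n = 3), 1051 ± 86.9 (SD, n = 3) and 166 ± 17.6 (SD, n = 2). On the log2 scale the difference was 5.15 (SE 0.08) in G2/SCR, 7.80 (SE 0.09) in G2/WT and 2.65 (SE 0.09) in SCR/WT, and the means stood in ratios of 35.4, 224 and 6.32. Among the 18947 genes, ordered by normalized count, DCN ranked between 228 and 248 in the G2 libraries, between 7677 and 8186 in SCR and between 11734 and 11984 in WT. The WT values rest on 144 and 155 recovered counts.

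LUM (GSHG0010410, chr12:91102629-91111517) encodes lumican and lies 29.0 kb from DCN. It was at 7971, 7336 and 6952 normalized counts in G2, at 1513, 1533 and 1418 in SCR, and at 372 and 488 in WT. Its order over the lines was that of DCN, again without overlap, but the steps were smaller. The log2 difference was 2.32 (SE 0.09) in G2/SCR, 4.12 (SE 0.11) in G2/WT and 1.80 (SE 0.11) in SCR/WT. The ratio of DCN to LUM normalized counts within a library was 5.02 ± 0.257 in G2, 0.708 ± 0.0795 in SCR and 0.398 ± 0.117 in WT (SD, n = 3, 3 and 2). This ratio does not depend on the size factor, and its lowest value in G2, 4.73, lay above its highest in the controls, 0.775.

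VCAN (GSHG0034479, chr5:83471744-83582302) encodes versican. It was at 5623, 5532 and 5230 normalized counts in G2, at 618, 458 and 501 in SCR, and at 175 and 203 in WT. As for DCN and LUM, no library of a line overlapped those of another. The means were 5462 ± 206 (SD, n = 3), 526 ± 83.1 (SD, n = 3) and 189 ± 19.4 (SD, n = 2), with a log2 difference of 3.39 (SE 0.11) in G2/SCR, 4.85 (SE 0.12) in G2/WT and 1.47 (SE 0.12) in SCR/WT. The antisense gene VCAN-AS1, which overlaps it on the opposite strand, was listed at 0 in every library.

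BCAN (GSHG0001227, chr1:156641948-156659528) encodes brevican, a lectican of the adult brain. It was at 464, 647 and 523 normalized counts in G2, at 476, 411 and 458 in SCR, and at 524 and 467 in WT. The libraries of the 3 lines overlapped, and the highest value, in G2 replicate 2, stood apart from the other G2 libraries. The log2 difference was 0.27 (SE 0.12) in G2/SCR, 0.13 (SE 0.14) in G2/WT and -0.14 (SE 0.14) in SCR/WT, none of them called.

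The start regions of VCAN and BCAN are shown because the RNA of VCAN differed strongly between the lines and that of BCAN did not. They were taken from the RefSeq promoter table for GRCh38.p14, which covers 250 bases before to 50 after the start of a gene. The table holds entries for 7 of the 10 members, the missing ones being DCN, LUM and NCAN. The 2 sequences, VCAN at chr5:83471494-83471793 and BCAN at chr1:156641867-156642166, both on the plus strand, are in lower case with matches to the GC box (GGGCGG, or CCGCCC for the other strand) in capitals:
VCAN: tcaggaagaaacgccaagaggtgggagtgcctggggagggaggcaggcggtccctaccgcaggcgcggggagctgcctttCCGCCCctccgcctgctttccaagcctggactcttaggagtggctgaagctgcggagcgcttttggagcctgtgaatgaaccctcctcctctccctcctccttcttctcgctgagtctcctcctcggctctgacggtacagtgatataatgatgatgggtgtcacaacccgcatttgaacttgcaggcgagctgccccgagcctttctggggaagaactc
BCAN: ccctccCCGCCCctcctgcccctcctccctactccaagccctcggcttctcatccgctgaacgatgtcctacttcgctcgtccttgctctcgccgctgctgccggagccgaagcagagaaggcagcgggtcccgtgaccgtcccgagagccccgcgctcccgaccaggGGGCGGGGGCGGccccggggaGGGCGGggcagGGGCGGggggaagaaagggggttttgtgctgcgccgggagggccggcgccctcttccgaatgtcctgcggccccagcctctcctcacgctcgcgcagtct

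The VCAN region has 1 GC box, 15 CpG dinucleotides and a GC content of 60.3%. The BCAN region has 5 GC boxes, 31 CpG dinucleotides and a GC content of 72.7%, against a median GC content of 58.7% over the 35116 regions of the table. A GC box was found in 44.95% of all regions. The AP-1 motif TGANTCA (in 7.71% of all regions), the TATA box TATAAA (11.5%) and the TEAD motif GGAATG (14.0%) were searched on both strands and matched neither region. The BGN region likewise held 5 GC boxes and none of the other motifs, with a GC content of 71.7%. A match here is a match of letters and not a measured binding site.

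NCAN (GSHG0021420, chr19:19211958-19252233) encodes neurocan, a lectican of the developing brain. It was at 365, 376 and 349 normalized counts in G2, at 652, 618 and 665 in SCR, and at 387 and 433 in WT. All SCR libraries lay above those of G2 and WT, and those of G2 lay below both WT libraries by a small margin. The log2 difference was -0.83 (SE 0.09) in G2/SCR, -0.17 (SE 0.10) in G2/WT and 0.65 (SE 0.10) in SCR/WT. With each library scaled to the same total, the small difference in G2/WT took the opposite sign, at 0.01. Without WT replicate 1 the SCR/WT difference was 0.57, below the threshold for a call. VCAN and NCAN were both higher in SCR than in WT but went apart in G2, where VCAN was at its highest and NCAN below SCR. The ratio of VCAN to NCAN within a library was 15.0 ± 0.341 in G2, 0.814 ± 0.116 in SCR and 0.460 ± 0.0113 in WT (SD, n = 3, 3 and 2).

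BGN (GSHG0046240, chrX:153494949-153509546) encodes biglycan, the closest relative of decorin. It was at 17.9, 28.5 and 35.5 normalized counts in G2, at 11.2, 0 and 3.02 in SCR, and at 0 and 1.99 in WT. The lowest G2 library exceeded every control library, but these values rest on 19, 26 and 33 recovered counts in G2 and on at most 11 in a control library. Small recovered counts were mostly multiples of 3, so 9 recovered counts were taken as about 3 fragments and as the floor. WT was under this floor, and BGN was at least 2.71-fold higher in G2 than in WT. The log2 difference was 2.90 (SE 0.99) in G2/SCR and 3.98 (SE 1.10) in G2/WT, and it was 1.38 and 1.74 with a pseudocount of 10. In G2/SCR it was 3.77 without SCR replicate 1 and 1.96 without SCR replicate 2. BGN passed the filter on low values only through G2, and it fell below the filter without G2 replicate 2 or without G2 replicate 3. BGN overlaps HAUS7, a gene on the opposite strand with means of 970, 1264 and 1747 normalized counts in G2, SCR and WT. The library kit keeps the strand, but the strand setting of the counting is not given in the sources used here, so reads shared with HAUS7 were not examined.

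The remaining members are collagen-binding or cartilage genes of connective tissue. PRELP (GSHG0001563, chr1:203475806-203491352), OGN (GSHG0044856, chr9:92383268-92404699) and ACAN (GSHG0014291, chr15:88803435-88875353) were listed at 0 in every library. FMOD (GSHG0003471, chr1:203159491-203351122) had 3 recovered counts in WT replicate 2, that is 2.98 normalized counts, and 0 elsewhere. At these depths the floor of 9 recovered counts corresponds to between 6.80 and 11.2 normalized counts, so a lower level of these genes was not detectable. Genes used by every cell, such as HPRT1 and TBP, had at least 1976 and 3004 normalized counts in all libraries. The treatment of reads on overlapping gene models is not given in the sources used here, and CHPF, an enzyme gene used in many tissues, is also listed at 0 in every library. A listed 0 is therefore not taken as a gene without RNA.

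**Figure D2:**
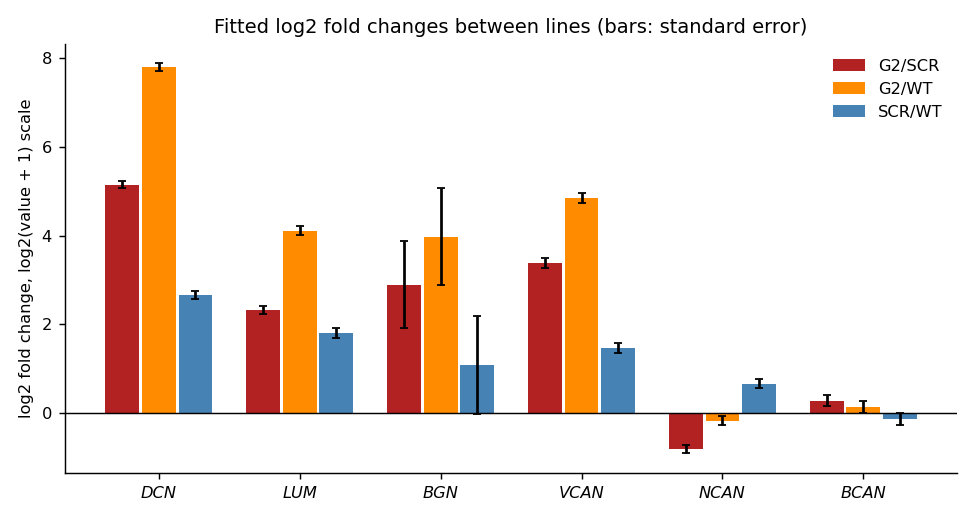
Bars give the fitted log2 fold change of 6 members in G2/SCR, G2/WT and SCR/WT on the log2(value + 1) scale, with the standard error. DCN reaches 5.15, 7.80 and 2.65, NCAN lies below 0 in G2/SCR and above 0 in SCR/WT, and the error bars of BGN are the widest, with a standard error of 0.99 to 1.10.

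To order the members by level, normalized counts were divided by the length of the canonical GENCODE transcript. The ratios of DCN to LUM and of VCAN to NCAN and the ranks of DCN given above are without this division. They serve to compare the lines and not the levels of the genes. In G2 the mean level per kb was 5428 ± 119 normalized counts for DCN, 2778 ± 193 for LUM, 442 ± 16.7 for VCAN, 165 ± 28.4 for BCAN, 56.7 ± 2.07 for NCAN and 11.6 ± 3.76 for BGN (SD, n = 3). No neighbours in this order overlapped. In SCR the order was LUM (557 ± 23.1), DCN (153 ± 12.7), BCAN (136 ± 10.1), NCAN (101 ± 3.84) and VCAN (42.6 ± 6.73), where the libraries of DCN and BCAN overlapped (SD, n = 3). In WT the order was LUM (161 ± 30.7), BCAN (150 ± 12.3), NCAN (64.1 ± 5.02), DCN (24.3 ± 2.57) and VCAN (15.3 ± 1.57), where LUM and BCAN overlapped (SD, n = 2). The brain lecticans BCAN and NCAN thus stood above DCN and VCAN in WT, and below both in G2. The place of DCN depends on the length used, since its exons over all transcripts span 12.9 kb against 6.85 kb for the canonical transcript. With the longer length its level was 2873 per kb in G2, where LUM had 2778, and 81.2 in SCR, below BCAN (94.1) and NCAN (93.2).

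The make-up of the set changed accordingly. DCN held 61.1% ± 0.892 of the summed level per kb in G2, 15.5% ± 1.08 in SCR and 5.87% ± 0.953 in WT. BCAN held 1.86% ± 0.328, 13.7% ± 0.753 and 36.3% ± 5.03, and VCAN 4.98% ± 0.0250, 4.28% ± 0.535 and 3.67% ± 0.169 (SD, n = 3, 3 and 2). The share of VCAN thus varied little while its level differed by more than an order of magnitude. All 10 members together took 0.0782% of the normalized counts of a library in G2, 0.00680% in SCR and 0.00229% in WT.

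**Figure D3:**
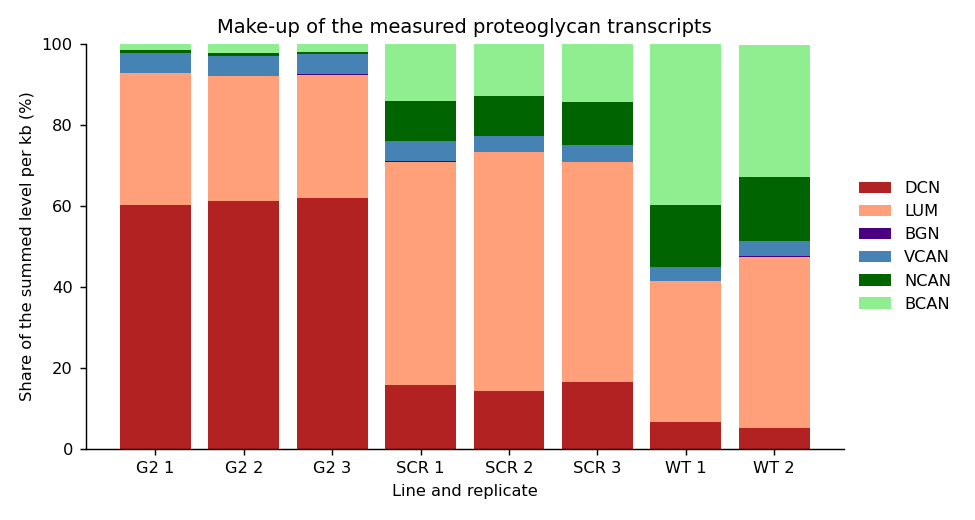
Each bar is a library, divided into the percent that each measured member takes of the summed level per kb of canonical transcript. DCN takes 61.1% on average in G2, LUM takes 56.2% in SCR, and LUM and BCAN take 38.6% and 36.3% in WT.

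The genes that make, modify, bind and degrade proteoglycans were taken from lists of 112 genes, all of them in the table, of which 90 had a mean of at least 10. In G2/SCR, 45 of these 90 were called higher (50%, against 15.1% of all genes) and 6 lower (6.67%, against 11.8%), with a median log2 fold change of 0.62, against -0.01 over all genes tested. In G2/WT, 49 were called higher (54.4%, against 17.7% of all genes) and 6 lower (6.67%, against 12.2%), with a median of 0.70, and 43 genes were called in the same direction in both comparisons, which share the G2 libraries. In SCR/WT, 13 were called higher (14.4%, against 10.7% of all genes) and 9 lower (10%, against 5.63%), shares closer to those of all genes, with a median of -0.02. This split turned to 22 higher and 1 lower when each library was scaled to the same total. CEMIP, counted as higher in both G2 comparisons, passed the filter only through G2, and without it 44 and 48 of 89 were higher. The scaling to the same total moved the median of all genes to -0.10 in G2/SCR, 0.19 in G2/WT and 0.29 in SCR/WT. Adjusted p-values below are Benjamini-Hochberg values over all 18947 genes from the same limma fit, and they measure the spread between libraries of a line. Where 3 means follow each other, they are given in the order G2, SCR and WT (SD, n = 3, 3 and 2).

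**Figure D4:**
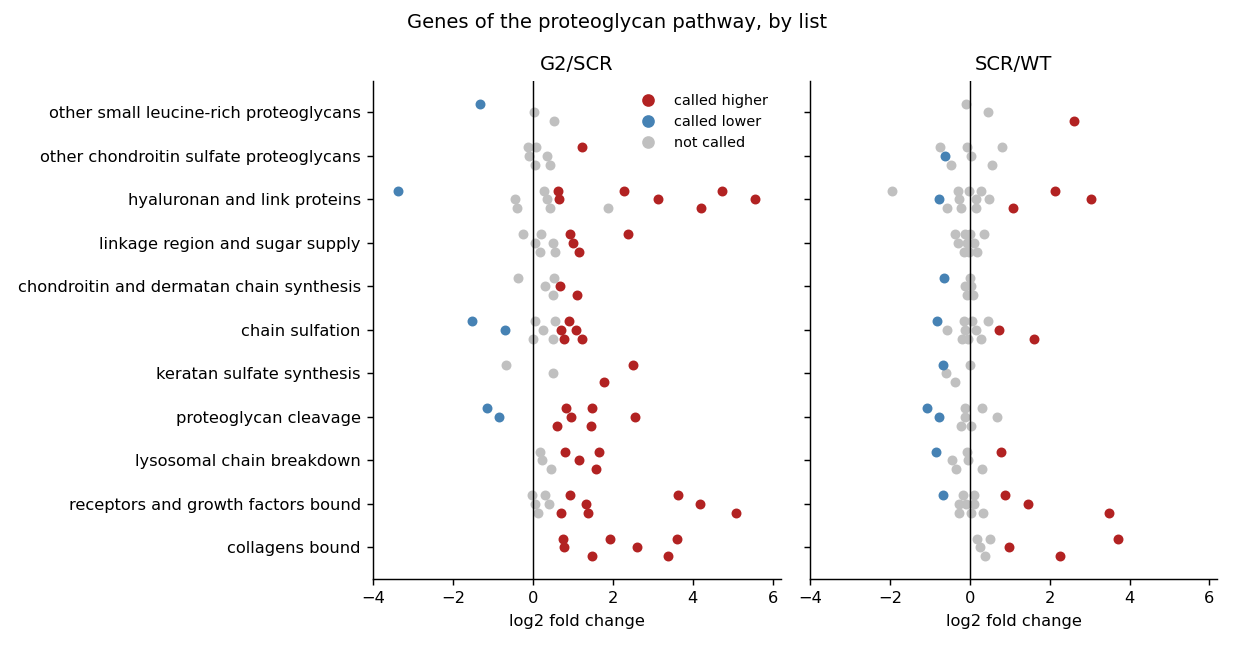
Each point is a gene of a pathway list with a mean of at least 10, placed by its log2 fold change in G2/SCR (left) and SCR/WT (right) and coloured by its call. In G2/SCR 45 points are called higher and 6 lower, and in SCR/WT 13 and 9.

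The linkage region is the short sugar bridge between a proteoglycan protein and its chain. Of the 10 genes for it and for its sugar supply, 4 rose against SCR, 6 rose against WT and 0 fell in either case. The shares that rose are 40% and 60%, against 15.1% and 17.7% of all genes. Of all genes, 11.8% and 12.2% fell. XYLT1, the xylosyltransferase that starts the bridge, had 9082 ± 532, 1743 ± 68.2 and 2149 ± 296 normalized counts. Its log2 difference was 2.38 (SE 0.08) in G2/SCR, adjusted p = 2.5e-10 with limma, and 2.08 (SE 0.09) in G2/WT. UGDH, which makes UDP-glucuronic acid, rose by 1.15 (adjusted p = 1.2e-07 with limma), and UXS1, which turns this into UDP-xylose, by 0.94 (adjusted p = 1.6e-07). In SCR/WT 0 of the 10 genes were called, where 10.7% of all genes were called higher and 5.63% lower. XYLT1 differed there by -0.30 (SE 0.09, adjusted p = 0.019 with limma).

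Of 6 tested genes of chondroitin and dermatan chain synthesis, 2 rose in G2/SCR, 1 rose in G2/WT and 0 fell. The shares that rose are 33.3% and 16.7%, against 15.1% and 17.7% of all genes, so that in G2/WT was close to all genes. Of all genes, 11.8% and 12.2% fell. CHPF2, a chain polymerizing enzyme, had 5066 ± 147, 2356 ± 40.5 and 2254 ± 205 normalized counts, with a log2 difference of 1.10 (SE 0.06, adjusted p = 2.9e-08 with limma) in G2/SCR. DSEL, an epimerase of dermatan sulfate, had 3005 ± 236, 1877 ± 83.6 and 2952 ± 607. It rose by 0.68 in G2/SCR (adjusted p = 0.00013 with limma), but its difference in G2/WT was 0.04.

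Sulfation was mixed. Of 12 genes tested, 5 rose and 2 fell in G2/SCR, and 4 rose and 1 fell in G2/WT. This is 41.7% and 16.7% in G2/SCR, against 15.1% and 11.8% of all genes. In G2/WT it is 33.3% and 8.33%, against 17.7% and 12.2%. CHST11, a 4-O-sulfotransferase of chondroitin, had 2769 ± 169, 1486 ± 84.7 and 2645 ± 96.6 normalized counts. It rose by 0.90 in G2/SCR (adjusted p = 4.9e-07 with limma) and fell by 0.83 in SCR/WT (adjusted p = 1.2e-05), a difference that was -0.56 and not called with each library scaled to the same total. CHST15, which adds the second sulfate of chondroitin sulfate E, showed the opposite pattern, with 216 ± 24.5, 623 ± 38.5 and 204 ± 30.6. It fell by 1.53 in G2/SCR (adjusted p = 7.4e-07 with limma) and rose by 1.61 in SCR/WT (adjusted p = 6.4e-06). Both genes differed between SCR and the other lines, while G2 and WT were close, at 0.06 and 0.08 on the log2 scale. BPNT2, a Golgi phosphatase that clears a by-product of sulfation, rose in G2 against both controls, by 1.07 and 1.13 (adjusted p = 6.4e-08 and 1.1e-07 with limma).

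For keratan sulfate, the chain that lumican can carry, 2 of 4 tested genes rose in G2/SCR (50%, against 15.1% of all genes). B4GALT1, a galactosyltransferase, rose by 1.79 (adjusted p = 1.5e-09 with limma) and CHST1, a keratan sulfotransferase, by 2.50 (adjusted p = 5.4e-06), from 51.5 ± 17.2 in SCR to 284 ± 33.5 in G2.

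Hyaluronan is the free sugar chain that lecticans bind, and link proteins fasten them to it. Of 14 genes tested, 7 rose and 1 fell in G2/SCR, and 7 rose and 2 fell in G2/WT. This is 50% and 7.14% in G2/SCR, against 15.1% and 11.8% of all genes. In G2/WT it is 50% and 14.3%, against 17.7% and 12.2%. Without CEMIP, which passed the filter only through G2, 6 of 13 rose in either comparison. HAS2, a hyaluronan synthase, was at 415, 392 and 368 normalized counts in G2, at 19.4, 24.4 and 17.4 in SCR, and at 1.24 and 1.99 in WT. WT was under the floor, so HAS2 was at least 38.9-fold higher in G2 than in WT, and the log2 difference in G2/SCR was 4.21 (SE 0.27, adjusted p = 1e-07 with limma). CEMIP2, described as a hyaluronidase of the cell surface, rose by 4.74 (adjusted p = 1e-08 with limma), from 10.3 ± 1.06 in SCR to 301 ± 21.4 in G2. TNC, the lectican ligand tenascin C, had 14192 ± 317, 1620 ± 39.1 and 1963 ± 121 and rose by 3.13 (adjusted p = 3.1e-12 with limma).

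Tenascin R (TNR), the brain tenascin, was the gene of this list that fell, and it is named after its values were seen. It had 20.8 ± 5.29, 221 ± 15.3 and 50.4 ± 11.6 normalized counts, a fall of 3.38 in G2/SCR (adjusted p = 1.9e-07 with limma) and a rise of 2.13 in SCR/WT (adjusted p = 9.1e-05). NCAN, TNR and CHST15 each had their highest level in SCR. The hyaluronan receptor CD44, also named after its values were seen, followed the order of DCN, with 852 ± 34.8, 179 ± 42.7 and 83.2 ± 19.3.

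Each lectican gene has a link protein gene beside it, at gaps of 55.5 kb for VCAN and HAPLN1, 16.2 kb for BCAN and HAPLN2, 1.94 kb for ACAN and HAPLN3 and 2.52 kb for NCAN and HAPLN4. HAPLN1 had 14.1 ± 5.68, 4.64 ± 4.69 and 14.2 ± 4.57 normalized counts, near the floor, and its log2 difference of 1.88 (SE 0.86) in G2/SCR was not called, beside 3.39 for VCAN. HAPLN2, at 24.4 ± 12.2, 30.6 ± 2.89 and 33.0 ± 27.1, was not called either. HAPLN3 rose by 0.63 in G2/SCR (adjusted p = 0.0012 with limma) beside ACAN at 0. HAPLN4 had a log2 difference of 0.34 in G2/SCR, where NCAN had -0.83, and rose by 0.81 in G2/WT (adjusted p = 0.016 with limma). Differences within a pair were not tested.

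The small leucine-rich proteoglycan genes also lie in clusters. KERA and EPYC, 44.6 and 94.7 kb from LUM, were listed at 0 in every library, and so were OPTC beside PRELP and OMD and ASPN beside OGN. ECM2, in the OGN cluster, had 14.1, 37.2 and 21.5 normalized counts in G2 and 0 in all other libraries, which is under the filter of a mean of 10. Among 3 other tested genes of the family, PODNL1 fell in G2/SCR by 1.34 (adjusted p = 0.022 with limma). Of 11 other chondroitin sulfate proteoglycans, 7 had a mean of at least 10, and among them SPOCK1 rose by 1.23 in G2/SCR (adjusted p = 8.3e-07 with limma) and by 0.62 in G2/WT, where it was no longer called without G2 replicate 1 (0.58) or without WT replicate 1 (0.48).

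The 20 nearest genes of DCN and LUM with a mean of at least 100, 10 on each side, spanned 8.43 Mb. Of these, 9 were called higher and 0 lower in G2/SCR, where 14.7% of all genes with such a mean were called higher and 8.89% lower. Their median log2 difference was 0.44, and the largest was 3.40 for NTS, the neurotensin gene. In G2/WT 10 were called higher and 0 lower (16.1% and 11.7% of all such genes), and in SCR/WT 2 and 1, close to the shares of all such genes (7.66% and 5.53%). Around VCAN 4 of 20 were called higher and 0 lower in G2/SCR, with a median of -0.07 and a largest difference of 2.55 for SSBP2. In G2/SCR no neighbour of DCN reached the log2 difference of DCN, and no neighbour of VCAN reached that of VCAN. NTS exceeded that of LUM. The neighbours of DCN include the antisense pairs of ATP2B1 and SOCS2, whose genes lie together and are not independent.

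**Figure D5:**
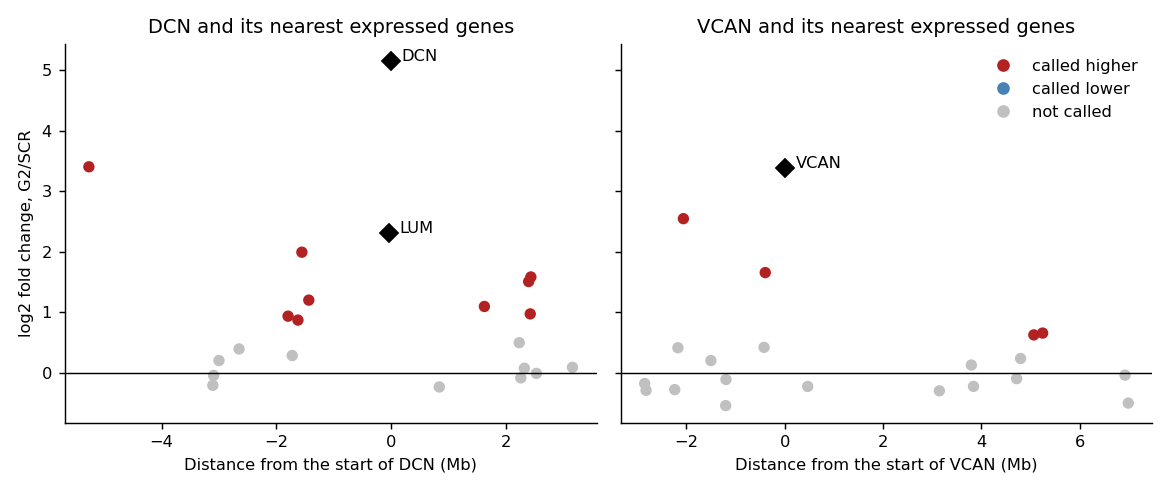
Log2 fold change in G2/SCR of the 10 nearest genes on each side whose mean reached 100, against the distance in Mb from the start of DCN (left) or VCAN (right), coloured by call. Diamonds mark DCN, LUM and VCAN, at 5.15, 2.32 and 3.39, and the highest neighbours are NTS at 3.40 (left) and SSBP2 at 2.55 (right).

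Cleavage of proteoglycan proteins is the task of ADAMTS proteases, several of which cut versican and aggrecan. Of 8 tested genes of this list, 6 rose and 2 fell in G2/SCR (75% and 25%, against 15.1% and 11.8% of all genes). ADAMTS4 rose by 0.94 (adjusted p = 2.1e-07 with limma), and BMP1, which trims the propeptides of decorin, biglycan and fibrillar procollagens, by 1.44 (adjusted p = 2.8e-07). ADAMTS9 fell by 1.16 in G2/SCR and by 1.28 in G2/WT (adjusted p = 7.2e-08 and 8.6e-08 with limma), from 24323 ± 792 in SCR and 26570 ± 4150 in WT to 10909 ± 254 in G2. Of 7 lysosomal genes that break down the chains, 4 rose in G2/SCR, 6 in G2/WT and 0 fell. The shares that rose are 57.1% and 85.7%, against 15.1% and 17.7% of all genes. GUSB rose by 1.59 and HEXA by 0.81 in G2/SCR (adjusted p = 6.6e-09 and 1.6e-07 with limma).

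The binding partners of decorin, lumican and biglycan include fibrillar collagens, TGF-beta and Toll-like receptors. All 7 collagen genes of the list rose in both G2 comparisons, where 15.1% and 17.7% of all genes did. COL3A1 had 40955 ± 743, 3348 ± 91.8 and 253 ± 6.94 normalized counts, with a log2 difference of 3.61 in G2/SCR, 7.33 in G2/WT and 3.72 in SCR/WT (adjusted p = 9.6e-13, 1.9e-15 and 5.4e-12 with limma). COL5A1 had 11783 ± 610, 1122 ± 24.8 and 234 ± 31.0, the same order over the lines as DCN, LUM and VCAN. COL1A1 had 3414 ± 301, 561 ± 35.9 and 468 ± 27.8 and was not called in SCR/WT (0.26).

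Of 12 tested receptors and growth factors, 7 rose in G2/SCR, 8 in G2/WT and 0 fell. The shares that rose are 58.3% and 66.7%, against 15.1% and 17.7% of all genes. The receptors EGFR, IGF1R and PTPRS were called in neither comparison. Their log2 differences in G2/SCR and G2/WT were -0.02 and -0.12 for EGFR, 0.13 and 0.23 for IGF1R, and 0.04 and 0.13 for PTPRS. The receptor MET was under the filter of a mean of 10. TGFB1 had 2357 ± 143, 130 ± 13.8 and 210 ± 29.9 normalized counts and rose by 4.17 in G2/SCR (SE 0.11, adjusted p = 6.7e-11 with limma). TLR4 was at 861, 792 and 864 in G2, at 55.1, 14.1 and 17.4 in SCR, and at 0 and 3.97 in WT, which was under the floor. It was at least 83.4-fold higher in G2 than in WT, and rose by 5.07 in G2/SCR (adjusted p = 1.2e-05 with limma). PTPRF, a receptor phosphatase of the family that binds chondroitin sulfate, rose by 0.69 (adjusted p = 9.2e-07 with limma).

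Marker lists of cell states also differed between the lines. Of 9 tested markers of mesenchymal neuroblastoma cells, 7 were called higher and 0 lower in G2/SCR (15.1% and 11.8% of all genes), 8 and 0 in G2/WT (17.7% and 12.2%), and 2 and 0 in SCR/WT (10.7% and 5.63%). PRRX1 and WWTR1 passed the filter only through G2, and without them 5 of 7 were called higher against SCR, and 6 of 7 against WT. YAP1 had 1721 ± 127, 220 ± 26.5 and 30.7 ± 9.996 normalized counts and VIM 214430 ± 2310, 85197 ± 2866 and 59181 ± 6502. TWIST1 went the other way, with 21105, 27740 and 26687 and a log2 difference of -0.39 in G2/SCR (adjusted p = 7.3e-05 with limma). FN1 was under the floor in all lines, at 2.27 normalized counts in SCR replicate 3 and 0 in every other library. The summed level of the list ran from 241350 to 246840 in G2, 114020 to 121230 in SCR and 84426 to 95142 in WT. VIM made up 87.7% to 87.9% of it in G2. Without VIM the sums were 29398 to 30309 in G2, 31395 to 32946 in SCR and 29843 to 31364 in WT. TWIST1, which was lower in G2, was the largest part of these remaining sums. They therefore do not show that the other markers were alike between the lines.

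Of 12 adrenergic markers, 0 were called higher in G2/SCR (15.1% of all genes) or in G2/WT (17.7%). Against SCR 9 were called lower (11.8% of all genes) and against WT 8 (12.2%). SCR/WT had 1 higher and 1 lower (10.7% and 5.63% of all genes). The sums of the adrenergic markers ran from 280200 to 284230 in G2, 394170 to 403810 in SCR and 362920 to 374360 in WT, so that SCR and not WT was highest. STMN2 made up 57.2% to 59.98% of the sum in G2, and its log2 difference in G2/SCR was -0.04. Without STMN2 the sums were 112120 to 121550 in G2, 220760 to 234220 in SCR and 245190 to 258530 in WT. Of 7 tested fibroblast markers, 4 were called higher and 1 lower in G2/SCR (15.1% and 11.8% of all genes) and also in G2/WT (17.7% and 12.2%). In SCR/WT 1 was called higher and 1 lower (10.7% and 5.63%). The sums of the fibroblast markers were 43459 to 45698 in G2, 21627 to 21986 in SCR and 23965 to 26342 in WT, lowest in SCR, and TCF21 was at 0. THY1 made up 80.4% to 80.6% of the sum in G2. Without THY1 the sums were 8434 to 8937 in G2, 4141.5 to 4474 in SCR and 5011 to 5240 in WT. COL1A1 and COL1A2 stand in this list and among the collagens. Of 10 markers of Schwann and oligodendrocyte lineage cells, 4 could be tested, and 0 of them were called in SCR/WT. Their sums lay between 1578 and 2490 over all libraries, and SOX10, FABP7, OLIG1 and OLIG2 were at 0. The part of these cell states in the levels of DCN, LUM and VCAN was not tested, and in bulk RNA more cells with a transcript and more transcript per cell cannot be told apart.

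The 2 members with the highest means were also compared with all 13065 genes whose mean reached 100 by Pearson's r of log2(value + 1) over the 8 libraries, as a description of 3 groups of libraries rather than of independent points. The genes most like DCN were OLFML3 (0.9993), PLK2 (0.99906), TRIM5 (0.99896), C6 (0.99889) and S100A11 (0.9988). Those most like LUM were HAS2 (0.99897), LONRF2 (0.99883), PALM2AKAP2 (0.99875), UBE2H (0.99866) and PLAU (0.99844). DCN had an r of 0.99 with LUM, 0.997 with VCAN, 0.44 with BCAN and -0.47 with NCAN. Likeness in order does not mean a like size, since UBE2H differed by only 0.64 on the log2 scale in G2/SCR, where LUM differed by 2.32.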

How the data were processed

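RNA was extracted from SH-SY5Y G2, SCR and WT cells, and stranded libraries of polyadenylated RNA were sequenced as paired ends. Per the submitters' processing notes and methods, the authors mapped reads to hg38 with STAR 2.7.5a, counted them on FAST DB genes with featureCounts (Subread 1.5.0) and normalized with DESeq2. The signal they deposited is this normalized count per gene and library, not scaled to length and without pooled replicates. The authors' comparison columns, fold changes and p-values, were not used. Every column of library values matched a labelled sample.

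Dividing each library by its smallest step gave whole counts, within 0.01, for 100% of values, and these are the recovered counts. Floors cover counting error only. Genes were fitted with limma 3.58.1 in R 4.3.3 (lmFit, eBayes with trend) on log2(normalized count + 1), with a mean per line and no covariate, over 18947 genes with a mean of at least 10. The fit was tested on simulated data. DESeq2 1.42.0 and edgeR 4.0.16 on the recovered counts of G2/SCR were alternatives, beside other pseudocounts, filters, scalings, a replicate block and leaving out each library. Transcript lengths, strands and overlapping genes came from GENCODE v44. Neighbours, distances and gaps were taken from the gene positions deposited with the counts.

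The members and the gene lists were chosen with earlier results of these data known. Named from each pathway list were the 3 called genes of lowest p in G2/SCR, the neighbours of members in gene pairs and clusters, and the 5 genes most like each of the 2 highest members. TNR, CD44, TWIST1, FN1 and CEMIP were named after their values were seen, and a few genes are not reported here. Replicates are labelled as biological, of 1 line each, so p-values measure the spread between libraries of a line and not between independently edited lines.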

Additional observations from a re-analysis of the deposited data

How the results depend on the processing

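The numbers of pathway genes called changed by less than 1.5 times under every alternative run. Leaving out each library in turn gave 49 to 55 called genes in G2/SCR, 53 to 57 in G2/WT and 21 to 24 in SCR/WT, against 51, 55 and 22. On the recovered counts of G2/SCR, DESeq2 called 50 and edgeR 51. The replicate numbers of the labels gave no sign of pairing. The correlation of same-numbered deviations lay between -0.0316 and 0.0417, where all pairs between lines ran from -0.0353 to 0.0463. With this number as a replicate block 52, 53 and 21 genes were called. The library names carry other numbers, and a block by those was not fitted. With each library scaled to the same total, 47.4% of all calls in G2/SCR, 75.8% in G2/WT and 90.7% in SCR/WT were higher, against 56.2%, 59.3% and 65.6%. Of the members' fold changes, 301 values moved by less than the spread between replicates and 25 by more. Many of the 301 could not move. The adjusted p, a fit without a trend, the filters and a fit of only the 2 lines compared leave a fold change as it is. So does leaving out a library of the line not compared. The 301 are therefore no measure of stability. With the same total, DCN was at 5.06, 7.98 and 2.93 in the 3 comparisons, and without single WT libraries LUM ranged from 3.92 to 4.31 in G2/WT. BGN ranged from 1.96 to 3.77 in G2/SCR when a library was left out, and had no value without G2 replicate 2 or 3, where its mean was under the filter. BCAN took the opposite sign in SCR/WT with the same total, at 0.13. Among named pathway genes, 22 values lost a call, all but 2 of them in SCR/WT, 1 gained a call (PODNL1 in G2/WT, -1.20 without G2 replicate 2) and 0 reversed. The calls of CHST11, GUSB and TGFB1 in SCR/WT were lost with the same total, at -0.56, -0.58 and -0.41. WT has 2 libraries, so a fit without 1 of them assumes that the other varies like the rest. Depth limits BGN, FMOD and the members at 0.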

Other observations

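CHPF, a chondroitin polymerizing enzyme used in many tissues, was listed at 0 in all 8 libraries, whereas its relative CHPF2 had means of 5066, 2356 and 2254 normalized counts in G2, SCR and WT. How FAST DB gene models and overlapping reads bear on such zeros was not tested. The receptor-type proteoglycan PTPRZ1 and the uronyl sulfotransferase UST were also listed at 0 in every library. PODN, a small leucine-rich proteoglycan outside the 10, had 76.7 ± 25.8 normalized counts in G2, 51.0 ± 4.70 in SCR and 7.57 ± 1.93 in WT, where it was under the floor.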
